A study of Mus musculus with 12 samples.

Results

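The interleukin-1 family and its antagonists were followed in cultured mouse airway macrophages (AMs), with and without bacterial lipopolysaccharide (LPS), a cell wall component of gram-negative bacteria. The 8 members were chosen by name, with earlier results of these data known. They were the agonist cytokines Il1a and Il1b, the receptor antagonist Il1rn, the signalling receptor Il1r1 and the decoy receptor Il1r2. The others were the shared accessory chain Il1rap, the related cytokine Il18 and its soluble binding protein Il18bp. All 8 were among the 20551 genes of the count table, and 7 of them passed the filter on low counts that left 13729 genes for testing.

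The 12 RNA sequencing libraries came from AMs of C57BL/6 mice, either wild-type (WT) or carrying the Scnn1b transgene (Scnn1b-Tg), which is driven by a club cell secretory protein promoter in the airway epithelium and gives mice a muco-obstructive lung disease. The cells of each genotype were held for 12 h in medium alone or in medium with 100 ng/ml LPS from Pseudomonas aeruginosa, which gave 4 groups of 3 libraries. Each library was taken as lavages of 3 to 4 animals pooled together, though the study's methods also describe sorting of AMs. The mice were 6 weeks old, and the medium and LPS libraries carried the numbers of 6 pools (WT 16, 17 and 18, Scnn1b-Tg 17, 18 and 19). WT 16, WT 17 and Scnn1b-Tg 17 were labelled batch 1 and the other pools batch 2. Total counts per library lay between 48191248 and 60896505, so that 3 reads, taken as the limit of detection, corresponded to 8 counts or, as counts per 1000000 (CPM, with TMM-scaled library sizes), to 0.137 to 0.163 CPM. All 10 AM markers examined, Siglecf and Chil3 among them, were above that limit in each group. The neutrophil markers summed to at most 37.8 CPM, the epithelial markers to at most 105.5 CPM and the monocyte markers to at most 2.49 CPM. Single AM markers moved with LPS: Siglecf was at 112 to 121 CPM in WT medium and 8.67 to 13.5 CPM in WT LPS libraries. In Scnn1b-Tg AMs it was at 103 to 128 and 5.08 to 8.08 CPM. Fabp4, Pparg, Ear2, Mrc1 and Mertk also fell in both genotypes, whereas Marco and Car4 rose. Scnn1b itself was at 0 to 0.755 CPM across the libraries, and since its transgene is driven in epithelium this level did not check the genotype labels. In bulk samples, fewer cells of a type and less RNA per cell cannot be told apart.

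Interleukin-1α and interleukin-1β bind the same receptor, which recruits the accessory chain and signals through the adaptor MyD88 to inflammatory genes. The receptor antagonist occupies that receptor without recruiting the accessory chain, the decoy receptor captures ligand without signalling, and the interleukin-18 binding protein keeps interleukin-18 from its own receptor. Interleukin-1β and interleukin-18 are made as inactive precursors that need cleavage, chiefly by caspase-1, whereas interleukin-1α acts as an alarm signal that dying cells can release, so RNA levels of these genes do not measure active cytokine.

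Il1a and Il1b are neighbours on chromosome 2 (mm10 chr2:129299610-129309972 and chr2:129364570-129371139, both on the minus strand), and Il1rn lies on the plus strand of the same chromosome at chr2:24336853-24351494. The 250 bases before the RefSeq start of these genes (GRCm38.p6) are shown because they are start regions of both agonist genes and of the antagonist gene. For Il1rn, which has 3 annotated starts, the first was used, and which start these cells use was not examined. The windows were chr2:129309973-129310222 for Il1a, chr2:129371140-129371389 for Il1b and chr2:24336610-24336859 for Il1rn. Capitals mark a TATA box (TATAAA), a C/EBP-type match (TTNNGNAA) or an AP-1-type match (TGANTCA), searched on both strands.
Il1a: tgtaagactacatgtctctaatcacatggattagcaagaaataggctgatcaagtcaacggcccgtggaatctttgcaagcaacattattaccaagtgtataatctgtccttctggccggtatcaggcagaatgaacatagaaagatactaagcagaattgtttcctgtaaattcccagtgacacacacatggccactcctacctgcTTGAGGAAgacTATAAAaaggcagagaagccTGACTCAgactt
Il1b: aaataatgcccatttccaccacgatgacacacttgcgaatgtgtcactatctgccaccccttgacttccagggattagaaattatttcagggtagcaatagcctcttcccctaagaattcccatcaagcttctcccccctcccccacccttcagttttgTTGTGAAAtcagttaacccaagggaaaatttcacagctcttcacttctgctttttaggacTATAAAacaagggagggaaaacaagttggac
Il1rn: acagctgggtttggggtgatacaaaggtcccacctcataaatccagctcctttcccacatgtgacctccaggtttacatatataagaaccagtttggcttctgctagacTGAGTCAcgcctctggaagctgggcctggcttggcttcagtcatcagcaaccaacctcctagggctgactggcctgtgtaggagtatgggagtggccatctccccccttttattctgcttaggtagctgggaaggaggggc
In windows of the same length before all 32851 annotated starts, TATAAA was found in 12.4%, TTNNGNAA in 36.8% and TGANTCA in 6.7%. Il1a held all of these motifs and Il1b held the first pair, with TATAAA at bases -32 to -27 and -31 to -26 before the start. At its first start Il1rn held TGANTCA alone. The windows of the other annotated starts held TTNNGNAA matches (the first base at -81, and at -161, -65 and -64) and no TGANTCA. Those windows overlap, so the matches at -81 and -161 are the same place, and the matches at -65 and -64 overlap each other. In Il1a and Il1rn TGANTCA was matched on both strands at 1 place because it reads nearly the same in reverse. No motif overlapped another in the printed windows. Neither a κB-type match, present in 7.3% of windows, nor an interferon-stimulated response element, present in 3.0%, was found in the printed windows, which says only that those letters were absent there.

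To ask how the family responds to a bacterial stimulus, LPS-treated AMs were compared with medium-treated AMs of the same genotype. In WT AMs, 4 of the 7 tested members were higher with LPS (Il1a, Il1b, Il1rn, Il18bp), 2 were lower (Il1r1, Il18) and Il1rap was not called. Over all tested genes, 15.2% were called higher and 15.7% lower in that comparison (edgeR quasi-likelihood test, Benjamini-Hochberg adj. P value under 0.05). In Scnn1b-Tg AMs the same 4 members were higher and Il1r1 was lower, against 18.8% of all tested genes called higher and 17.8% lower. The median fold change of the 7 members was 1.83 on the log2 scale in WT AMs and 1.63 in Scnn1b-Tg AMs, compared with 0.001 and -0.016 over all tested genes. The members were chosen with earlier results of these data known, so these medians describe them and do not test the family.

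**Figure D1:**
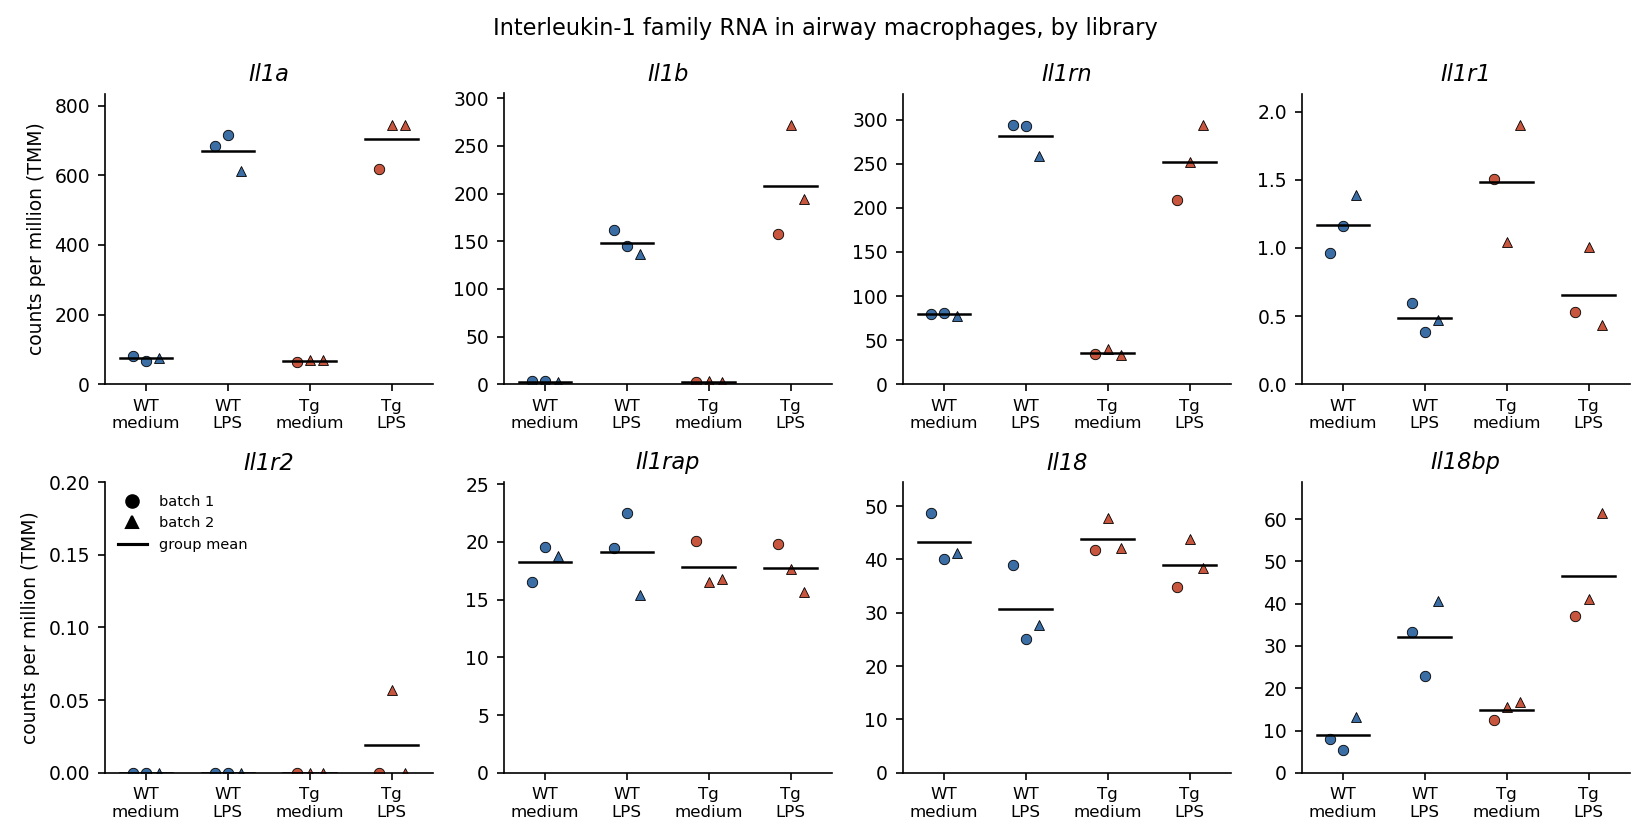
Level of each member in every library, in CPM with TMM scaling, for the 4 groups of 3 libraries. Points are libraries (circles batch 1, triangles batch 2, blue WT, red Scnn1b-Tg), bars are group means and each panel starts at 0. LPS libraries lie above medium libraries of both genotypes for Il1a, Il1b, Il1rn and Il18bp, and the Il1rn medium libraries of Scnn1b-Tg (33.7 to 39.7 CPM) lie below those of WT (77.4 to 81.3 CPM).

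Il1a was already abundant in AMs cultured in medium alone. Its level in medium was 81.9, 66.9 and 76.1 CPM in WT pools 16, 17 and 18, and 63.5, 70.0 and 68.5 CPM in Scnn1b-Tg pools 17, 18 and 19. With LPS it was 684, 716 and 611 CPM in the WT pools and 619, 745 and 744 CPM in the Scnn1b-Tg pools. Every LPS library stood above every medium library, while the genotypes overlapped under both culture conditions. The fold change on the log2 scale was 3.16 in WT AMs (SE 0.11, edgeR adj. P value 3.4e-08) and 3.38 in Scnn1b-Tg AMs (adj. P value 1.54e-08). Within pools, LPS over medium ranged from 8.03-fold to 10.9-fold.

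Il1b, the agonist whose precursor is cleaved by caspase-1, was scarce without LPS and showed the largest rise among the members. In medium it was 3.15, 2.99 and 2.19 CPM in WT AMs and 2.09, 3.02 and 1.98 CPM in Scnn1b-Tg AMs, which corresponds to 106 to 176 counts. LPS libraries held 162, 145 and 136.5 CPM in WT AMs and 158, 272 and 195 CPM in Scnn1b-Tg AMs, with the highest value in Scnn1b-Tg pool 18. The LPS and medium libraries did not overlap, and the LPS libraries of the genotypes did. Il1b rose by 5.73 on the log2 scale in WT AMs (SE 0.26, edgeR adj. P value 1.01e-07) and by 6.46 in Scnn1b-Tg AMs (adj. P value 4.09e-08). The neutrophil markers, genes of a cell type that also makes Il1b, summed to 20.7 to 24.2 CPM in WT medium and 15.2 to 17.5 CPM in WT LPS libraries, and to 27.3 to 37.8 and 16.9 to 22.5 CPM in the Scnn1b-Tg libraries. Single markers went both ways: S100a8 was at 2.00 to 3.88 CPM in WT medium and 6.00 to 9.24 CPM in WT LPS libraries, and at 3.65 to 5.78 and 7.62 to 14.2 CPM in the Scnn1b-Tg libraries, whereas Cxcr2 was at 3.63 to 4.35 CPM in WT medium and at most 0.283 CPM in WT LPS libraries. Camp was at 0 in medium and reached at most 0.475 CPM with LPS, and S100a9 was at 0 in the WT libraries and at most 5 counts in a Scnn1b-Tg library. The part of these markers in the Il1b result was not tested.

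The mix of agonist transcripts shifted towards Il1b. Per kilobase of transcript, Il1b made up 5.15% ± 1.06 (SD, n = 3) of the summed Il1a and Il1b level in WT medium and 24.3% ± 1.42 in WT LPS libraries. In Scnn1b-Tg AMs the share was 4.84% ± 0.969 in medium and 29.8% ± 4.27 with LPS. Il1a therefore remained the more abundant of these transcripts per kilobase in all 12 libraries, the highest Il1b share being 34.7% in Scnn1b-Tg LPS pool 18.

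Il1rn, which encodes the receptor antagonist, was measured in medium at 79.9, 81.3 and 77.4 CPM in WT AMs and at 33.8, 39.7 and 33.7 CPM in the Scnn1b-Tg pools. With LPS it reached 294, 293 and 258 CPM in WT AMs and 209, 252.5 and 293.5 CPM in Scnn1b-Tg AMs. The medium libraries of the genotypes were separate, whereas their LPS libraries overlapped. Il1rn rose by 1.83 on the log2 scale in WT AMs (SE 0.12, edgeR adj. P value 1.5e-06) and by 2.81 in Scnn1b-Tg AMs (SE 0.13, adj. P value 6.93e-08). LPS over medium was 3.68-fold, 3.61-fold and 3.34-fold in WT pools 16, 17 and 18. It was 6.18-fold, 6.37-fold and 8.72-fold in Scnn1b-Tg pools 17, 18 and 19, each a larger factor than in any WT pool. The pool factors of the genotypes were also separate for Il1b (48.5 to 62.3 in WT, 75.7 to 98.3 in Scnn1b-Tg). For Il18 they were 0.628 to 0.801 in WT and 0.838 to 0.916 in Scnn1b-Tg pools. The pool factors of the genotypes overlapped for the other members tested, Il1a, Il1r1, Il1rap and Il18bp. The share of all tested genes with separate pool factors was not counted, and edgeR called no member for a difference in response.

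**Figure D2:**
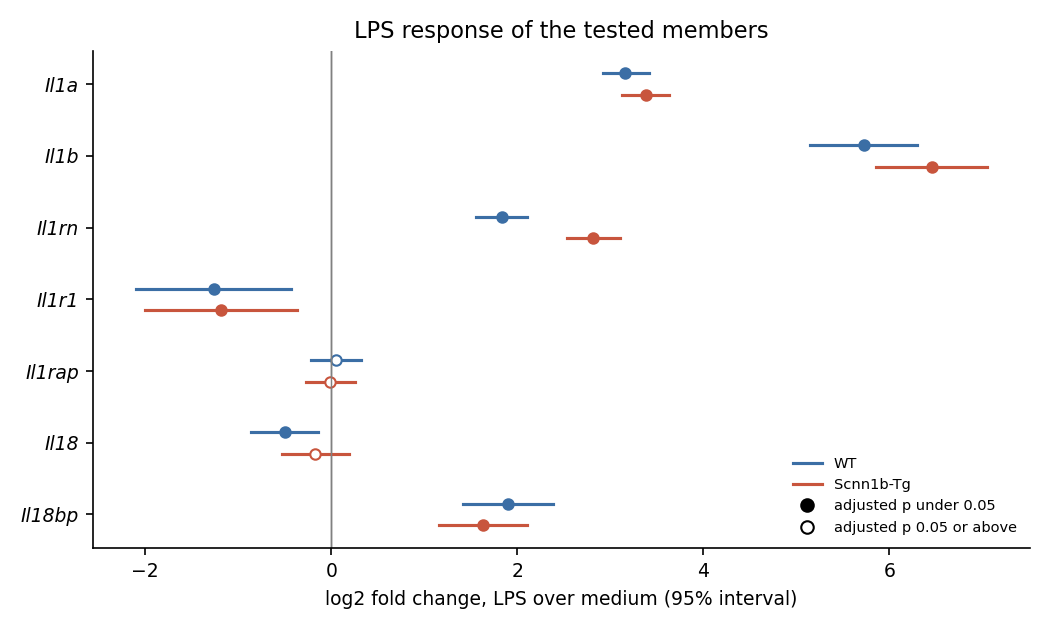
Fitted LPS response of the 7 tested members, as log2 fold change of LPS over medium (x axis) in WT (blue) and Scnn1b-Tg AMs (red). Points are edgeR estimates, lines their 95% intervals and filled points adj. P values under 0.05. Il1b has the largest response (5.73 and 6.46), Il1rn differs most between genotypes (1.83 and 2.81) and Il1rap lies at 0.05 and -0.01.

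Of the receptor chains, Il1r1 fell with LPS, Il1rap was not called and Il1r2 was below the detection limit. Il1r1, the signalling receptor (mm10 chr1:40225080-40317257), was at 0.967, 1.16 and 1.39 CPM in WT medium and 0.599, 0.382 and 0.472 CPM in WT LPS libraries. In Scnn1b-Tg AMs it was at 1.51, 1.05 and 1.91 CPM in medium and 0.528, 1.01 and 0.436 CPM with LPS. The medium and LPS libraries did not overlap in either genotype, although Scnn1b-Tg pool 18 was nearly level between medium and LPS. Il1r1 fell by 1.26 on the log2 scale in WT AMs (SE 0.38, edgeR adj. P value 0.0265) and by 1.19 in Scnn1b-Tg AMs (adj. P value 0.0273). These calls rest on 22 to 102 counts per library. With the pool as a fixed replicate block the edgeR adj. P values were 0.0552 in WT and 0.058 in Scnn1b-Tg AMs. The call in WT AMs was also lost without WT medium pool 17 or 18 or WT LPS pool 17 or 18 (adj. P value 0.0705 to 0.103), and that in Scnn1b-Tg AMs without Scnn1b-Tg medium pool 17 or 19 or Scnn1b-Tg LPS pool 17 or 19 (0.095 to 0.111) or with the Scnn1b-Tg libraries fitted alone (0.0715).

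Il1rap, the accessory chain shared by the receptors for interleukin-1 and interleukin-33 (mm10 chr16:26581704-26730117), ranged from 15.4 to 22.5 CPM over the 12 libraries. Those extremes were WT LPS pools 18 and 17, and the 4 groups overlapped. Its log2 fold change with LPS was 0.05 in WT AMs (95% interval -0.22 to 0.32, edgeR adj. P value 0.804) and -0.01 in Scnn1b-Tg AMs (-0.27 to 0.26, adj. P value 0.98). Il1r2, the decoy receptor (mm10 chr1:40074079-40125231), had 0 counts in 11 libraries and 3 counts in Scnn1b-Tg LPS pool 18, below the detection limit of 8 counts, and was not tested. Its transcript was therefore not detectable at this depth in AMs of either genotype, in medium or with LPS.

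Il18 and its binding protein moved differently from each other. Il18 (mm10 chr9:50554827-50581840) was at 48.7, 40.05 and 41.1 CPM in WT medium and 39.0, 25.1 and 27.7 CPM in WT LPS libraries. In Scnn1b-Tg AMs it was at 41.7, 47.8 and 42.2 CPM in medium and 34.9, 43.8 and 38.3 CPM with LPS. The WT groups did not overlap, though the highest LPS library and the lowest medium library were close, and the Scnn1b-Tg groups overlapped. Il18 fell by 0.50 on the log2 scale in WT AMs (SE 0.16, edgeR adj. P value 0.0382). In Scnn1b-Tg AMs the fold change was -0.17 (95% interval -0.53 to 0.19, edgeR adj. P value 0.457). The call in WT AMs was lost without any one of WT medium pools 16, 17 or 18, WT LPS pools 17 or 18, Scnn1b-Tg medium pools 17 or 19, or Scnn1b-Tg LPS pool 19, with adj. P values from 0.0523 to 0.160. It was also lost with no low-count filter (0.0824) and with the WT libraries fitted alone (0.134).

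Il18bp, which neutralises interleukin-18 (mm10 chr7:102014885-102018690), was at 8.04, 5.44 and 13.1 CPM in WT medium and 12.6, 15.5 and 16.8 CPM in Scnn1b-Tg medium. Its LPS libraries held 33.3, 22.8 and 40.5 CPM (WT) and 37.1, 41.0 and 61.4 CPM (Scnn1b-Tg). LPS libraries stood above medium libraries throughout, and the medium libraries of the genotypes overlapped through WT pool 18. Il18bp rose by 1.90 on the log2 scale in WT AMs (SE 0.22, edgeR adj. P value 6.92e-05) and by 1.63 in Scnn1b-Tg AMs (adj. P value 0.000137). Exons of Il18bp overlap those of Numa1, which was at 59.5 to 142 CPM, and the counting used no strand, so the reads of these genes cannot be told apart where they overlap. Numa1 was at 87.6 to 112 CPM in WT medium and 71.5 to 109 CPM in WT LPS libraries. In Scnn1b-Tg AMs it was at 98.5 to 142 CPM in medium and 59.5 to 100 CPM with LPS. The part of Numa1 reads in the Il18bp results was not tested.

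To compare antagonists with what they oppose, levels were set per kilobase of transcript and taken as ratios within each library, with no test. Il1rn over the sum of Il1a and Il1b was 0.738, 0.911 and 0.779 in WT medium and 0.406, 0.426 and 0.376 in Scnn1b-Tg medium. With LPS the ratio was 0.255, 0.252 and 0.255 in WT AMs (mean 0.254 ± 0.00169, SD, n = 3) and 0.196, 0.177 and 0.228 in Scnn1b-Tg AMs (mean 0.200 ± 0.0260). No groups overlapped for this ratio, which was lowest in Scnn1b-Tg LPS libraries and highest in WT medium libraries. Thus the antagonist transcript rose with LPS but by less than the agonist transcripts together. The size of the ratio depends on the transcript length assumed for Il1rn: its mean in WT medium was 0.809 with the longest principal transcript, 1.03 on the CPM scale without length and 0.367 with the summed exons of all transcripts, and the order of the 4 group means was the same in each. For the other pair the direction was the opposite, since Il18bp over Il18 rose from a mean of 0.112 ± 0.0530 to 0.580 ± 0.182 in WT AMs and from 0.184 ± 0.0274 to 0.648 ± 0.191 in Scnn1b-Tg AMs (SD, n = 3).

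**Figure D3:**
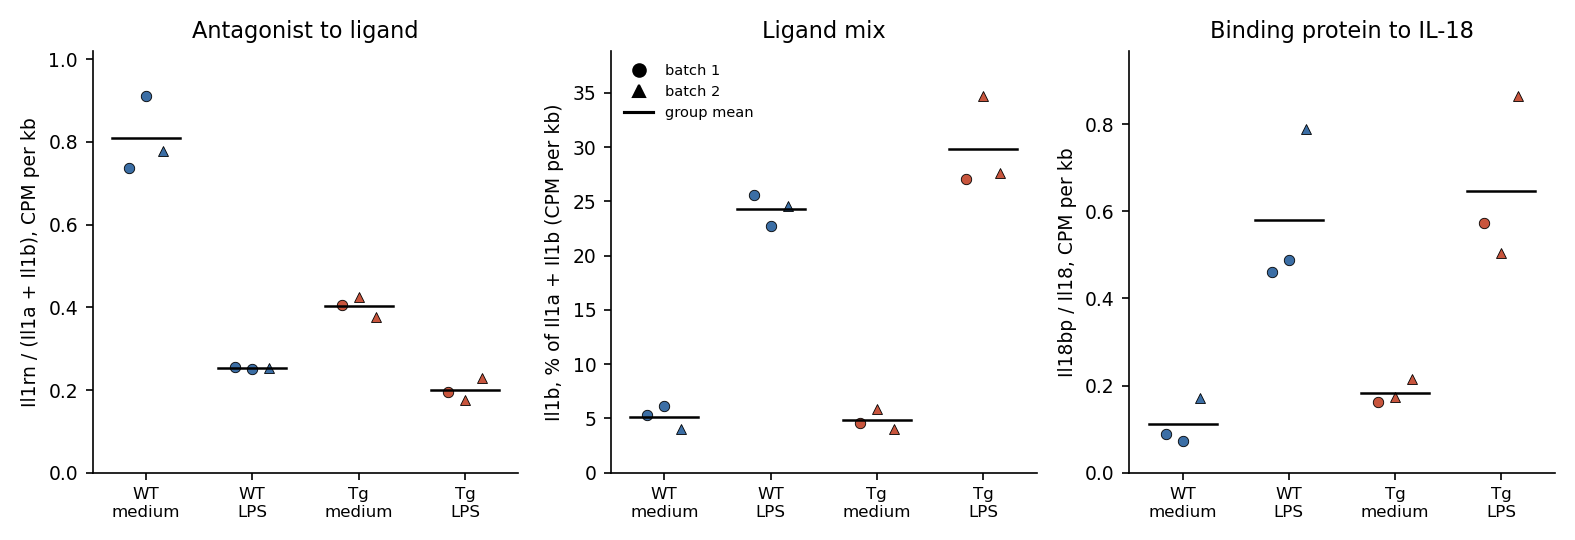
Ratios per library on the CPM per kilobase scale: Il1rn over Il1a plus Il1b (left), Il1b as a percentage of Il1a plus Il1b (middle) and Il18bp over Il18 (right). Points are libraries (circles batch 1, triangles batch 2, blue WT, red Scnn1b-Tg) and bars group means. The left ratio falls from a mean of 0.809 to 0.254 with LPS in WT AMs and from 0.403 to 0.200 in Scnn1b-Tg AMs, while the right ratio rises in both.

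To ask whether the muco-obstructive airway alters this family, Scnn1b-Tg AMs were compared with WT AMs under the same culture condition. In medium, Il1rn was called lower in Scnn1b-Tg AMs and the other 6 tested members were not called, against 0.16% of all tested genes called lower in that comparison. The mean level of Il1rn was 79.6 ± 1.99 CPM (SD, n = 3) for the WT pools against 35.7 ± 3.43 CPM for the Scnn1b-Tg pools. The difference was -1.18 on the log2 scale (SE 0.12, 95% interval -1.45 to -0.90, edgeR adj. P value 0.00627), and Il1rn had the 4th lowest P value of the 13729 genes. The difference was -1.24 within batch 1 and -1.07 within batch 2. Leaving out Scnn1b-Tg medium pool 17, the batch 1 library of its group, gave -1.15 with an adj. P value of 0.119, and the call held in the other 19 alternatives. Cell type markers also differed between these groups: the neutrophil markers summed to 20.7 to 24.2 CPM in WT and 27.3 to 37.8 CPM in Scnn1b-Tg medium libraries (5 of the 8 in the table above the detection limit in each group, Camp at 0 in both). The epithelial markers summed to 69.0 to 95.9 CPM in WT and 31.5 to 62.6 CPM in Scnn1b-Tg medium libraries, mostly Scgb1a1 and Sftpc, with 5 and 6 of the 6 above the limit. The AM markers summed to 11810 to 12680 CPM in WT and 14020 to 17380 CPM in Scnn1b-Tg medium libraries. That sum was mostly Chil3 (9543 to 10330 CPM in WT, 11500 to 14400 CPM in Scnn1b-Tg). Fabp4, Pparg and Car4 were likewise higher in each Scnn1b-Tg medium library, whereas Siglecf, Itgax, Marco, Ear2, Mrc1 and Mertk overlapped between the genotypes. The part of these differences in the Il1rn result was not tested.

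Among the other members in medium, Il18bp had the largest difference, with 0.62 on the log2 scale (95% interval 0.14 to 1.09, edgeR adj. P value 0.268) and 0.88 within batch 1 but 0.29 within batch 2. Il1a differed by -0.18 (-0.41 to 0.06) and Il1b by -0.26 (-0.82 to 0.30). Il1r1, Il1rap and Il18 differed by 0.29, 0.03 and 0.02. The medium libraries of the genotypes overlapped for each of these members. The share of all tested genes whose medium libraries did not overlap was not counted.

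With LPS, 0 of the 7 members were called between genotypes by edgeR, 0 had an unadjusted P value under 0.05 and DESeq2 also called 0. The share of all tested genes called in that comparison was 0.051%, or 7 genes, and 11 genes were called with the pool as a random replicate block. Il1b was higher by 0.47 on the log2 scale in Scnn1b-Tg AMs (95% interval -0.02 to 0.95, edgeR adj. P value 0.758), with 0.05 within batch 1 and 0.75 within batch 2. Il18 and Il18bp differed by 0.35 (-0.03 to 0.72) and 0.34 (-0.13 to 0.81). Il1rn differed by -0.19 (-0.46 to 0.08), a narrower gap than in medium, with -0.49 within batch 1 and 0.08 within batch 2. Il1a differed by 0.04 (-0.19 to 0.28). The intervals leave room for genotype differences of up to 0.95 on the log2 scale for Il1b and 0.28 for Il1a at this number of pools.

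**Figure D4:**
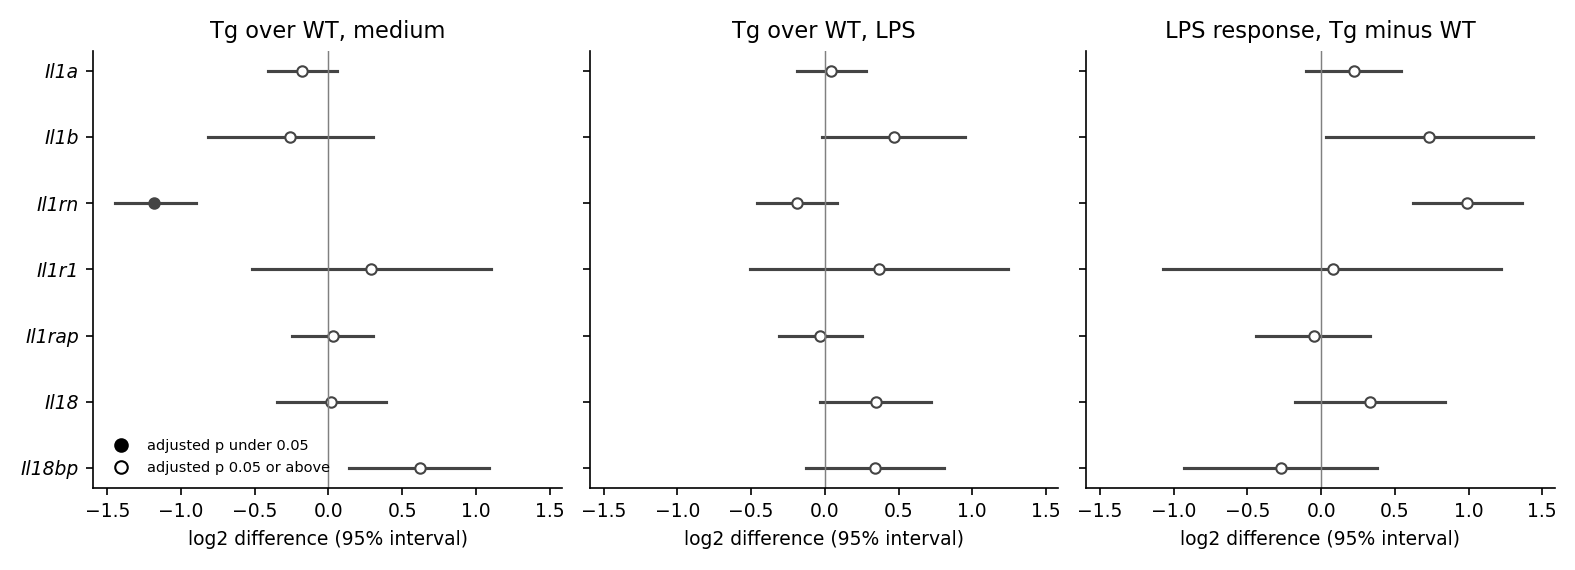
Genotype differences of the 7 tested members on the log2 scale: Scnn1b-Tg over WT in medium (left), the same with LPS (middle) and the LPS response of Scnn1b-Tg minus that of WT AMs (right). Points are edgeR estimates, lines their 95% intervals and filled points adj. P values under 0.05. The filled point is Il1rn in medium at -1.18, and its response difference at 0.99 is open.

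Whether the LPS response itself differed between genotypes was tested as an interaction. No member was called by edgeR, as no gene was (0% of those tested, with 795 at an unadjusted P value under 0.05), whereas 2 members were under that unadjusted value and DESeq2 called 77 genes, 1 of them a member. That member was Il1rn, whose response was larger in Scnn1b-Tg AMs by 0.99 on the log2 scale (SE 0.17, 95% interval 0.62 to 1.36, unadjusted P value 0.000127, edgeR adj. P value 0.278), the 6th lowest P value of the tested genes. Its DESeq2 adj. P value was 0.000134. The difference in response and the difference in medium share the medium libraries and are not separate observations. Il1b followed with 0.73 (95% interval 0.03 to 1.44, unadjusted P value 0.0436, edgeR adj. P value 0.851). Il1a differed in response by 0.22, Il18 by 0.33 and Il18bp by -0.27, with intervals that include 0.

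The wider pathway was described with 32 further genes, of which 27 were in the table and 23 were tested. In WT AMs 10 of the 23 rose and 5 fell with LPS, and in Scnn1b-Tg AMs 11 rose and 6 fell, beside 15.2% higher and 15.7% lower over all tested genes in WT AMs and 18.8% and 17.8% in Scnn1b-Tg AMs. Their median log2 fold changes were 0.32 and 0.29. This list was likewise drawn up with earlier results of these data known, so these values are a description. Between genotypes and in the interaction, edgeR called 0 of the 23, while 6 were under an unadjusted P value of 0.05 in medium, 2 with LPS and 4 in the interaction, beside 1784, 931 and 795 of all 13729 genes.

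Among the other ligands, Il36g, an epithelial-type agonist of the interleukin-36 receptor, was at 3.02 to 9.67 CPM in WT medium and 63.5 to 78.2 CPM in WT LPS libraries. It rose by 3.47 on the log2 scale in WT and by 4.24 in Scnn1b-Tg AMs (edgeR adj. P values 2.56e-05 and 5.67e-06). Il36a, another such agonist, had 0 counts in all medium libraries, 10, 23 and 0 counts in the WT LPS libraries and 15, 12 and 20 counts in the Scnn1b-Tg LPS libraries, close to the limit of 8. It was not called in WT AMs (adj. P value 0.0592) and was called higher in Scnn1b-Tg AMs (0.0256), where the call was lost without any one of Scnn1b-Tg medium pools 17, 18 or 19 or Scnn1b-Tg LPS pools 18 or 19 (adj. P value 0.0528 to 0.0809). Il33, the alarmin of this family, reached at most 15 counts in a library and was not tested. The receptor for interleukin-36, Il1rl2, fell by 0.58 in WT and by 0.80 in Scnn1b-Tg AMs (adj. P values 0.00248 and 0.000242), and its call in WT AMs was lost with no batch term (0.0706). Sigirr, a receptor-like inhibitor of the pathway, was called lower in both genotypes, from 15 to 31 counts per library in medium to 0 to 8 counts with LPS. In Scnn1b-Tg AMs its adj. P value was 0.0451, 0.0743 with the pool as a fixed replicate block and 0.0702 to 0.181 without any one of the WT medium, Scnn1b-Tg medium or Scnn1b-Tg LPS pools. The chains of the interleukin-18 and interleukin-33 receptors, Il18r1, Il18rap and Il1rl1, stayed at or below 14 counts per library and were not tested.

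Of the 13 adaptors and kinases downstream of the receptor, 6 rose and 2 fell in WT AMs, and 5 rose and 3 fell in Scnn1b-Tg AMs. The shares over all tested genes were 15.2% higher and 15.7% lower in WT and 18.8% and 17.8% in Scnn1b-Tg AMs. Some of these calls did not hold in every alternative. Traf6 held in 9 of 20 alternatives in WT AMs (adj. P value up to 0.162) and was lost on leaving out any library other than WT medium pool 17, WT LPS pool 16 or Scnn1b-Tg LPS pool 19, with no batch term and with the WT libraries fitted alone. Tollip held in 15 of 20 in each genotype (up to 0.187 and 0.159), and was lost without WT medium pool 16 or WT LPS pools 17 or 18 in WT AMs and without pool 17 or 18 in medium or 17 or 19 with LPS in Scnn1b-Tg AMs. Irak1 held in 19 of 20 in WT and 15 of 20 in Scnn1b-Tg AMs (up to 0.0605 and 0.104), the latter lost without pool 17 or 19 in medium or 17 or 18 with LPS, and Irak4 held in 18 of 20 in Scnn1b-Tg AMs (up to 0.0554), lost without pool 18 of either condition. Irak3, a kinase-like inhibitor of MyD88 signalling, rose by 2.08 on the log2 scale in WT and by 2.35 in Scnn1b-Tg AMs (edgeR adj. P values 5.98e-06 and 1.78e-06). Peli1, an E3 ubiquitin ligase of the pathway, rose by 1.79 and 1.96, while its relative Peli2 fell by 1.46 and 1.98. The adaptor Myd88 rose by 0.34 and 0.56, and Tab2, which links TRAF6 to the kinase TAK1, rose by 0.66 and 0.65.

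Of the 6 genes for cleavage and release of the cytokines, 3 rose and 1 fell in WT AMs, and 4 rose and 1 fell in Scnn1b-Tg AMs, beside the same shares over all genes. The gene that fell in WT AMs was Casp8, which held in 5 of 20 alternatives (adj. P value up to 0.251) and was lost on leaving out any of the 12 libraries. Gsdmd, called higher in Scnn1b-Tg AMs, held in 15 of 20 (up to 0.102) and was lost without pool 17 or 19 in medium or 17 or 18 with LPS. Nlrp3, the sensor of the inflammasome that activates caspase-1, was at 5.52 to 7.48 CPM in WT medium and 80.3 to 106 CPM in WT LPS libraries. It rose by 3.95 on the log2 scale in WT and by 4.21 in Scnn1b-Tg AMs (edgeR adj. P values 4.19e-08 and 2.54e-08). Casp1 rose by 0.76 and 1.11, and Casp4, the mouse caspase-11 that senses intracellular LPS, rose by 1.5 and 2.23. The difference in Casp4 response between genotypes was 0.73 (95% interval 0.33 to 1.13) and was not called (edgeR adj. P value 0.459).

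**Figure D5:**
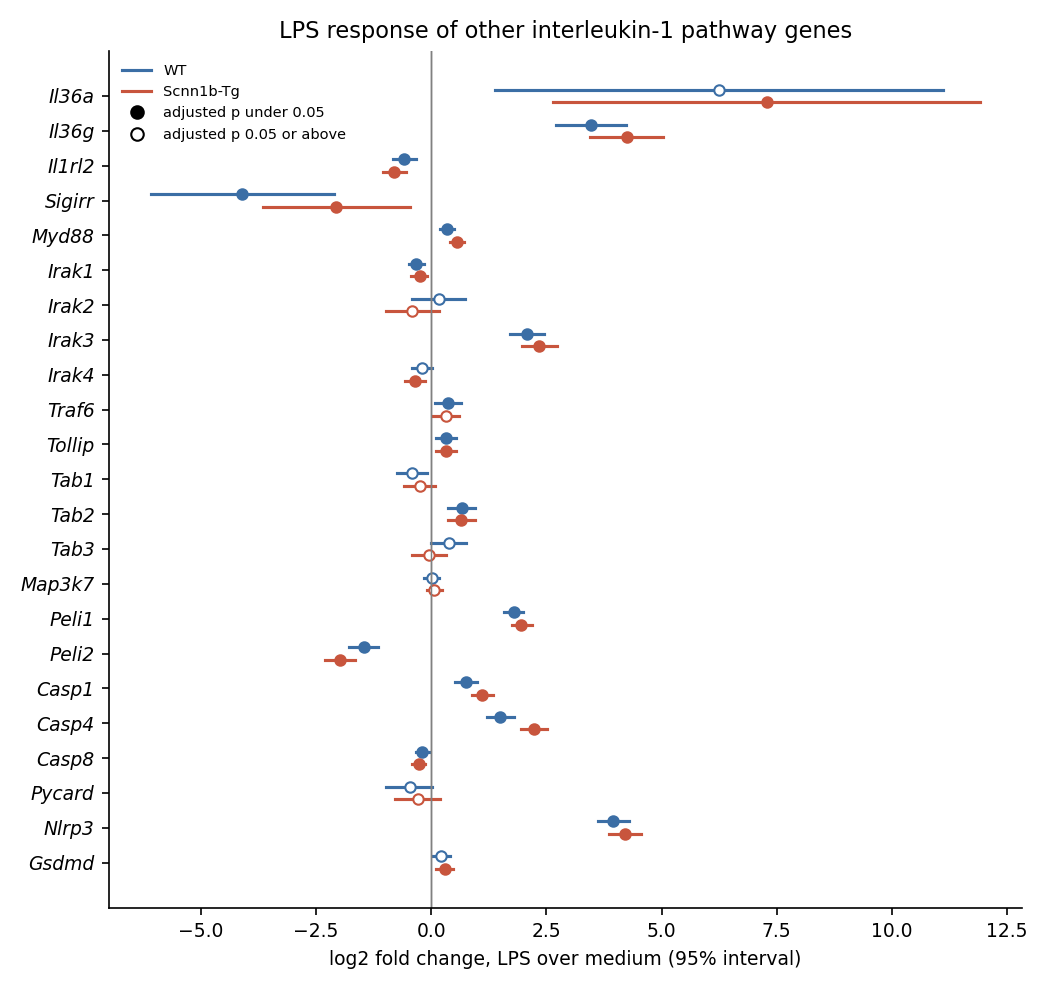
LPS response of the 23 tested pathway genes outside the 8 members, as log2 fold change of LPS over medium (x axis) in WT (blue) and Scnn1b-Tg AMs (red). Points are edgeR estimates, lines their 95% intervals and filled points adj. P values under 0.05. Nlrp3 lies at 3.95 and 4.21 and Il36g at 3.47 and 4.24, and the wide intervals of Il36a and Sigirr belong to genes near the detection limit.

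The genes whose log2 CPM followed each member most closely were listed over the 12 libraries, which share pools, batches and the LPS contrast, so high values of Pearson's r are a description without a test. For Il1a they were Nfkbiz, Csf3 and Acod1 (r = 0.998, 0.997 and 0.997), and for Il1b they were Slamf6, Csf3 and Il1a (each 0.996). For Il1rn they were Tpm4, Psmd7 and Slc25a33 (0.991, 0.989 and 0.987). Il18bp was closest to Psme1, Xaf1 and Ifi35 (0.985, 0.983 and 0.982). Il18 was closest to Tspan4, Apex1 and Mzt2 (0.948, 0.944 and 0.928), Il1r1 to Galm, Smyd3 and Clec9a (0.957, 0.957 and 0.956) and Il1rap to Ctdspl2, Exoc8 and Tm9sf2 (0.943, 0.925 and 0.921).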

How the data were processed

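RNA was measured by SMART-Seq v4 libraries, sequenced with paired 125 bp reads. Sources differ on isolation: the labels describe adherent lavage cells, the study's methods also sorting of AMs. The authors aligned reads with HISAT2 (mm10) and summarised genes with StringTie without strand, and they deposited estimated counts as whole numbers that pile up in steps of 5 per read pair. All 12 columns were mapped to samples by title.

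The members and lists were chosen with earlier results of these data known. Named genes were the 8 members, pathway genes that passed the threshold and the 3 genes with the highest r for each member, with Il33, Il18r1, Il18rap and Il1rl1 added after their values were seen. Counts were tested in edgeR 4.0.16 (R 4.3.3) with TMM scaling, filterByExpr (minimum count 10), group and batch terms over all 12 libraries, a quasi-likelihood F test and Benjamini-Hochberg adjustment over 13729 genes. Fits were tested on simulated data. CPM used TMM library sizes, and ratios divided CPM by the length of the longest principal transcript (GENCODE M21). Intervals cover the spread of these libraries, unadjusted. Library titles give medium and LPS samples of a genotype a shared number, and numbers were taken to pair libraries on that label. Their deviations from group means correlated in each of the 6 pools (r = 0.137 to 0.335). Those of libraries with the same number but different genotypes also correlated (r = 0.11 to 0.261). Batch was not subtracted, so these values alone do not separate a shared pool from a shared batch. Alternatives were DESeq2 1.42.0, its size factors, no filter, counts divided by 5, no batch term, replicate blocks (limma 3.58.1), the comparison's libraries alone and leaving out each library. Figures used matplotlib 3.10.9.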

Additional observations from a re-analysis of the deposited data

How the results depend on the processing

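The LPS calls of Il1a, Il1b, Il1rn and Il18bp held in both genotypes in all 20 alternatives run, and those of Il1r1 and Il18 did not, as given with their values above. The replicate block that pairs libraries by pool changed no call of a member other than that of Il1r1. Genes called between genotypes with LPS (7) numbered 146 with DESeq2, 11 with counts divided by 5, 1 with no batch term, 11 with the pool as random replicate block, 12 with the replicate number as fixed block, 2 with the libraries of the comparison alone and 2 to 11 when each library was left out. In medium (36) they numbered 501 with DESeq2, 20 with no low-count filter, 61 with counts divided by 5, 19 with no batch term, 12 with its own libraries alone and 4 to 27 when each library was left out, the fewest without Scnn1b-Tg medium pool 17. Members called in medium ranged from 0 to 1 on leaving out a library. For the interaction (0 genes) DESeq2 called 77 genes and 1 member, and leaving out a library gave 0 to 1 genes.

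Values that changed sign belonged to differences that were not called, and the cause was not tested. The LPS response of Il1rap in WT AMs ranged from -0.06 to 0.20 on leaving out a library, and that in Scnn1b-Tg AMs was 0.02 with no low-count filter and -0.04 to 0.05 on leaving out a library. With LPS, the genotype differences on leaving out a library ranged from -0.09 to 0.16 for Il1a, -0.01 to 0.58 for Il1r1 and -0.14 to 0.06 for Il1rap. In medium, that of Il1rap was -0.04 with no batch term and -0.01 with the replicate number as fixed block and with its own libraries alone, and leaving out a library gave -0.07 to 0.17 for it and -0.07 to 0.10 for Il18. The interaction ranged from -0.34 to 0.31 for Il1r1 and -0.19 to 0.06 for Il1rap.

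With 3 pools per group, differences under the stated intervals could not be resolved, and Il1r1, Il36a, Sigirr and Il1r2 were limited by their counts.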
